A study of Mus musculus with 7 samples.

Results

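The collagen genes of the mouse embryo were taken as all genes whose array annotation gives a single symbol made of Col, a number, the letter a and a number, such as Col1a1. There were 36 of them among the 12393 genes that had a probe set with a single symbol, and they were covered by 58 probe sets. A probe set is a group of short probes on the array that together give 1 brightness, called the signal, for a transcript. Each gene was read from its probe set of highest mean over the 7 arrays, and 19 of the 36 genes had more than 1 to choose from. Of the 36 genes, 21 were bright enough to be tested, among 8019 tested genes in all, and 15 were too dim.

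Collagens are extracellular proteins in which chains wind around each other as a triple helix. The fibrillar collagens form the rope-like fibrils of loose mesenchyme, skin, bone and cartilage, the type IV chains form the sheet-like network of basement membranes, and smaller classes sit on fibril surfaces, form beaded filaments or span cell membranes. Before secretion the chains are hydroxylated on proline and lysine and folded with dedicated chaperones, and outside the cell their propeptides are cut off and the fibrils are crosslinked. In the early embryo Col2a1 is made by the notochord, the somites and other tissues ahead of cartilage, Col1a1, Col1a2 and Col3a1 by mesenchyme, and Col4a1 and Col4a2 wherever an epithelium or endothelium lays down a basement membrane.

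RNA came from whole C57BL/6 mouse embryos of embryonic day 9, separated from yolk sac and amnion, that were wild type, heterozygous or knockout for Adnp, a homeodomain and zinc-finger gene needed for development past mid-gestation. The series was made to find genes that act downstream of Adnp, in all cells of the embryo at once. Each array held RNA of 2 littermates of the same genotype and, per the labels, of mixed sex, with 2 arrays (4 embryos) of wild type, 3 arrays (6 embryos) of heterozygotes and 2 arrays (4 embryos) of knockouts. The genotype was read from yolk sac DNA by PCR for Adnp and a neomycin resistance gene, and the labels name no Cre or transgene promoter. Knockout embryos of this stage are described by the submitters as already abnormal in shape and development, before they degenerate and are resorbed.

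The arrays were of similar scale, with median signals of 55.5 to 57.4 and Pearson's r between arrays of 0.925 to 0.982 on the log2 scale. The knockout itself could not be checked, since the only probe set annotated to Adnp also names a neighbouring gene. Heterozygous array 1 stood apart through Prl8a2, a prolactin-family gene of the decidua, which read 828.6 there and 16.2 to 138.4 on the other 6 arrays. The Y-linked gene Kdm5d read 10.0 and 4.3 on the wild-type arrays and 46.7 to 102.9 on the other 5, although all pools are labelled as mixed in sex. In comparisons with wild type this Y-linked difference runs along with genotype, and the part of sex in any gene was not tested. Replicates are pools of different embryos, so p-values measure the spread between pools, and with 2 or 3 arrays per genotype that spread is known only roughly.

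Promoter sequence was matched by symbol in a RefSeq table of mouse build GRCm38.p6, which held 27 of the 36 collagen genes. It did not hold Col1a1, Col2a1, Col26a1, Col5a2, Col12a1, Col14a1, Col22a1, Col4a3 or Col9a3. The 250 bases before the annotated start are shown for Col1a2, the partner chain of Col1a1 and higher on both knockout arrays than on all others, and for Col3a1, the type III chain, whose genotypes overlapped. Capitals mark 3 promoter motifs searched on both strands, namely the CCAAT box, the TATA box (searched as TATAAA) and the GC box (searched as GGGCGG), and no matches overlap. The Col1a2 stretch lies at chr6:4505368-4505617 on the plus strand and the Col3a1 stretch at chr1:45311288-45311537, also on the plus strand.
Col1a2: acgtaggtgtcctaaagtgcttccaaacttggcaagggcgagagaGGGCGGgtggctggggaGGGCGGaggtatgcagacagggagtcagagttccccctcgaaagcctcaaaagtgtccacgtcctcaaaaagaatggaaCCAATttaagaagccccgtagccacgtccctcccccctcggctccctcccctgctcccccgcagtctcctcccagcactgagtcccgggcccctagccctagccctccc
Col3a1: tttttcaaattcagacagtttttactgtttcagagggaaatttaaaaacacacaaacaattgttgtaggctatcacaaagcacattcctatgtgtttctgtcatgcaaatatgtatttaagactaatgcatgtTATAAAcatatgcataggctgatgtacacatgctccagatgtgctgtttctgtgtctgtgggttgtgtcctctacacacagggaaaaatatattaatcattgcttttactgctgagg
Col1a2 had GGGCGG at 205 and 188 bases and CCAAT at 109 bases before the start, and Col3a1 had TATAAA at 117 bases before it. Of the 32851 windows of the same length in the table, 32.7% held GGGCGG, 33.8% held CCAAT and 12.4% held TATAAA on either strand.

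In knockout embryos 2 collagens were lower than in wild type, Col26a1 and Col2a1, and the other 19 tested collagens did not pass. Differences are given as log2 of signal plus 3.8, knockout minus wild type, and the added 3.8 makes differences of dim genes look smaller than they are. A gene passed when its p-value from limma, Benjamini-Hochberg adjusted over the 8019 genes, was under 0.05. Over all genes 3.32% passed in this comparison, 1.96% higher and 1.36% lower in the knockout. Of the 21 collagens 0 passed as higher, and 3 had an unadjusted p under 0.05, where 19.1% of all genes did. The median log2 difference over the 21 collagens was 0.03, and over all genes it was -0.02.

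**Figure D1:**
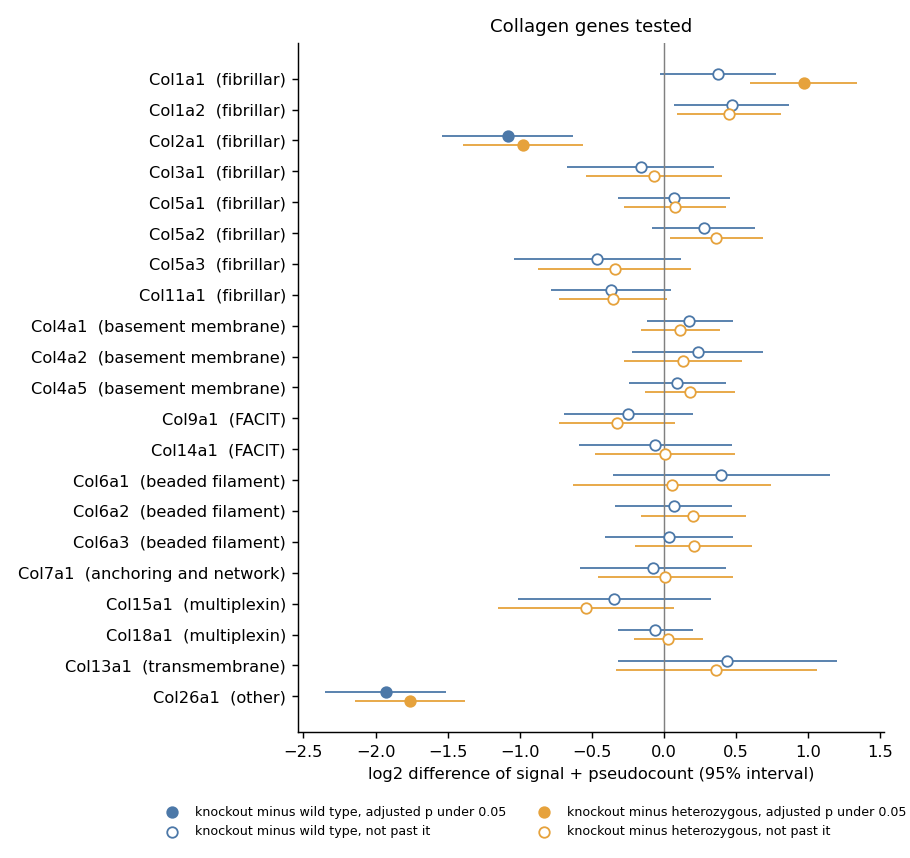
Log2 differences of the 21 tested collagens with 95% intervals, knockout minus wild type and knockout minus heterozygous, with filled points for an adjusted p under 0.05. Col26a1 and Col2a1 lie below 0 in both comparisons, Col1a1 above 0 with a filled point against the heterozygotes only, and most other intervals include 0.

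Col26a1 encodes a secreted protein with an EMI domain and short collagenous stretches, and stands outside the main collagen classes. It read 166.9 and 208.5 on the wild-type arrays, 168.7, 139.6 and 192.6 on the heterozygous arrays, and 46.8 and 45.6 on the knockout arrays. Both knockout arrays lay far below the other 5, and wild type and heterozygotes overlapped. The mean signal was 187.7 ± 29.4 (SD, n = 2) in wild type, 167.0 ± 26.5 (SD, n = 3) in heterozygotes and 46.2 ± 0.85 (SD, n = 2) in knockouts. The log2 difference from wild type was -1.93 (SE 0.19, 95% interval -2.35 to -1.51, limma adjusted p = 0.000744), which is 3.81-fold lower. Col26a1 passed with any of the 7 arrays left out, with log2 differences of -2.09 to -1.77. It has 1 probe set on the array, and in RNA of whole embryos fewer cells that make it and less RNA per cell cannot be told apart.

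Col2a1, the chain of the fibrils of cartilage and notochord sheath, read 573.3 and 785.1 in wild type, 788.5, 553.0 and 556.6 in heterozygotes, and 351.1 and 282.4 in knockouts. Both knockout arrays again lay below the other 5, while the wild-type arrays spanned nearly the whole range of the heterozygous ones. Its mean was 679.2 ± 149.8 (SD, n = 2) in wild type, 632.7 ± 134.9 (SD, n = 3) in heterozygotes and 316.8 ± 48.6 (SD, n = 2) in knockouts. The log2 difference was -1.08 (SE 0.20, 95% interval -1.54 to -0.63, limma adjusted p = 0.0205), or 2.12-fold lower. Col2a1 also has 1 probe set, and it lost its call without wild-type array 2 (log2 difference -0.86, adjusted p = 0.187), knockout array 1 (-1.24, 0.0715) or knockout array 2 (-0.93, 0.175).

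**Figure D2:**
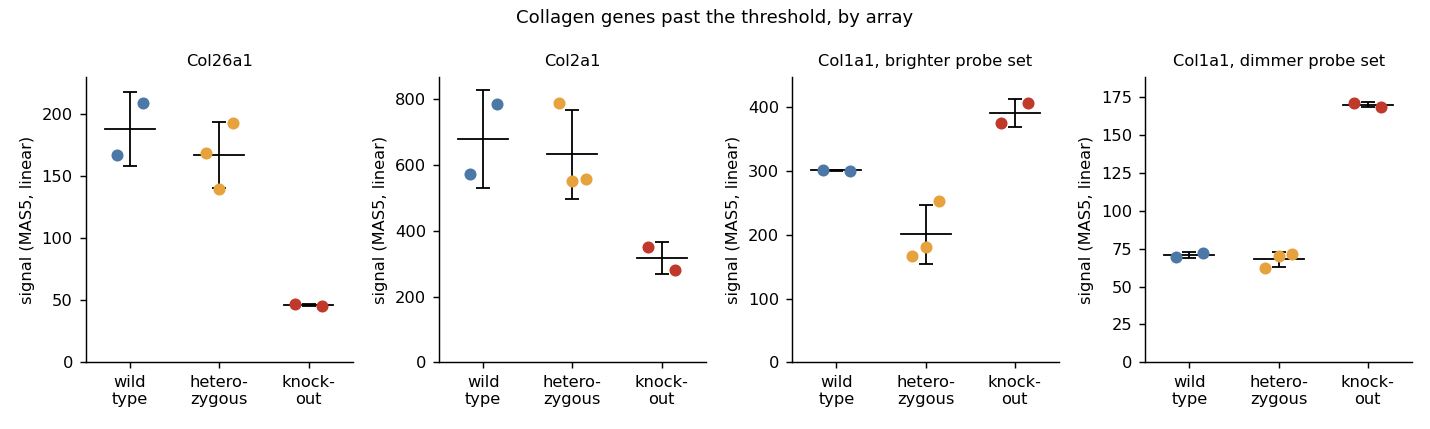
Signals of Col26a1, Col2a1 and both probe sets of Col1a1 by genotype (linear axes from 0), with each point 1 array of 2 pooled embryos and bars for mean ± SD. Both knockout points lie below the other 5 for Col26a1 and Col2a1 and above them on both Col1a1 probe sets.

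The type I chains Col1a1 and Col1a2, which together form the main fibril of bone, skin and mesenchyme, were both higher on the knockout arrays than on all others. Col1a1 read 302.2 and 300.9 in wild type, 167.2, 181.5 and 253.7 in heterozygotes, and 376.4 and 406.9 in knockouts. The genotypes did not overlap, with heterozygotes lowest and knockouts highest. Against wild type the log2 difference of 0.37 (SE 0.18, 95% interval -0.03 to 0.78) did not pass (limma adjusted p = 0.306). The other Col1a1 probe set read 69.3 and 72.2 in wild type, 62.2, 70.0 and 71.6 in heterozygotes, and 170.9 and 168.6 in knockouts. On it wild type and heterozygotes overlapped and the knockouts stood well above both, with a log2 difference from wild type of 1.22 (SE 0.17). With each of 12528 probe sets tested separately, where 2.15% passed, it had a limma adjusted p of 0.00938. It lost that call without wild-type array 2 or either knockout array (adjusted p 0.0689 to 0.0907). The probe sets of Col1a1 thus had the same sign against wild type but not the same size, and whether they read the same transcripts was not tested.

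Col1a2 read 443.8 and 533.0 in wild type, 614.3, 414.6 and 469.8 in heterozygotes, and 630.1 and 724.7 in knockouts. Heterozygous array 1 came close to the lower knockout array, and the rest lay well under it. The log2 difference from wild type was 0.47 (SE 0.18, 95% interval 0.07 to 0.87) and did not pass (limma adjusted p = 0.188). The other probe set gave nearly the same difference, 0.52, with an adjusted p of 0.124.

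**Figure D3:**
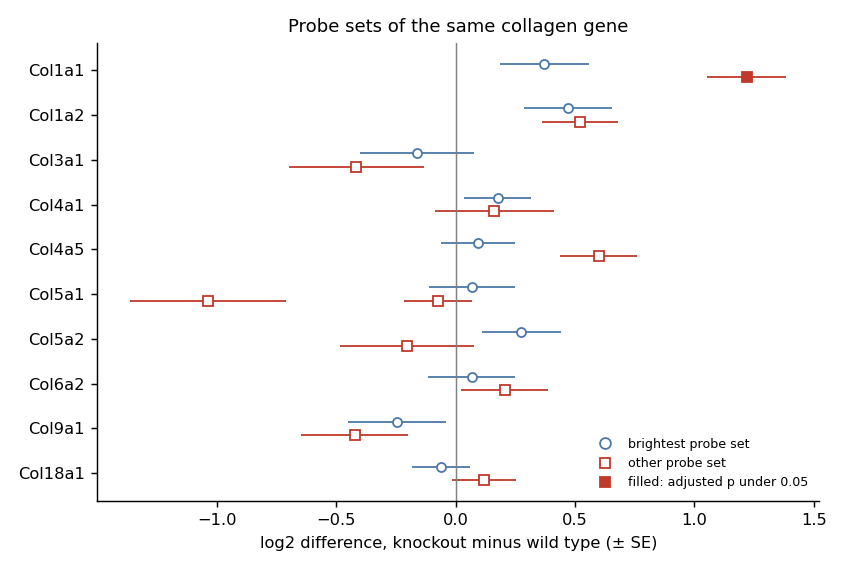
Log2 differences, knockout minus wild type, with bars of 1 SE, of all probe sets past the filter for the 10 collagens with more than 1 such probe set. In 7 of the genes the probe sets share a sign, in Col18a1, Col5a1 and Col5a2 they do not, and the second Col1a1 probe set is the only filled point (adjusted p under 0.05).

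Among the other fibrillar collagens none passed in any comparison. Col3a1, the type III chain of reticular fibrils, read 819.5 and 1418.9 in wild type, 1201.7, 839.1 and 1026.6 in heterozygotes, and 1004.4 and 925.6 in knockouts. Its wild-type arrays enclosed all other values, and the log2 difference was -0.16 (95% interval -0.67 to 0.35). Col5a3, a minor chain of type V, read 36.1 and 44.2 in wild type, 33.1, 35.6 and 40.9 in heterozygotes, and 30.6 and 25.6 in knockouts. Both knockout arrays were lowest, with a log2 difference of -0.46 (SE 0.26, limma adjusted p = 0.382). Col11a1, which with Col2a1 builds the thin fibrils of cartilage, read 101.0 and 106.0 in wild type, 98.8 to 108.6 in heterozygotes, and 68.0 and 92.7 in knockouts. The knockout arrays were again lowest, but differed from each other by more than the other 5 did, and the log2 difference of -0.37 (SE 0.18) did not pass (limma adjusted p = 0.321).

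Col5a1 and Col5a2, the type V chains that set the width of type I fibrils, had log2 differences of 0.07 and 0.28. Their probe sets went both ways. Another Col5a1 probe set read 67.7 and 87.2 in wild type and 40.3 and 31.3 in knockouts, a log2 difference of -1.04 (limma adjusted p = 0.136 with probe sets tested separately). The other Col5a2 probe set gave -0.20, so no direction can be given for either gene. Of the 8 tested fibrillar collagens 4 had a log2 difference above 0, 1 passed as lower, and the median was -0.05.

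The basement membrane chains Col4a1, Col4a2 and Col4a5 had log2 differences from wild type of 0.18, 0.24 and 0.09, and none passed. Col4a1 read 611.7 and 755.4 in wild type, 667.1 to 797.4 in heterozygotes, and 792.7 and 744.6 in knockouts, and Col4a2 read 270.1 and 448.0, 338.8 to 413.2, and 407.0 and 413.6. On both genes wild-type array 1 was the lowest of the 7, and the genotypes overlapped. The log2 difference of Col4a1 had a 95% interval of -0.12 to 0.48 and that of Col4a2 one of -0.22 to 0.69.

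Col4a5, an X-linked chain, read 132.1 and 146.7 in wild type, 127.9, 121.7 and 144.9 in heterozygotes, and 148.9 and 148.8 in knockouts, which were highest by a small margin. Its other probe set read 114.2 and 116.1 in wild type, 97.9, 117.0 and 114.9 in heterozygotes, and 190.7 and 163.1 in knockouts, clear of all others. That probe set had a log2 difference from wild type of 0.60 (limma adjusted p = 0.0932 with probe sets tested separately). Xist, the X-inactivation RNA that follows the share of female embryos, read 801.0 and 844.4 in wild type, 595.0, 62.0 and 548.2 in heterozygotes, and 510.3 and 58.8 in knockouts, and its part in the Col4a5 values was not tested. Of the proteins that share the basement membrane, 8 were tested and 0 passed in any comparison, with a median log2 difference from wild type of 0.21. Of the 8, 5 lay above 0, the largest of them the laminin chain Lamb1 (0.43, limma adjusted p = 0.239), and 3 below 0, the largest of them Hspg2, the perlecan core protein (-0.34, 0.18). Lama4, another laminin chain of the list, fell under the brightness filter and was not tested. It read 28.1 and 78.3 in wild type, 52.2, 37.0 and 37.4 in heterozygotes, and 12.9 and 11.7 in knockouts.

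The remaining classes held 9 tested collagens beside Col26a1, and none passed. Col9a1, which decorates cartilage fibrils, read 224.1 and 324.3 in wild type, 261.2 to 332.4 in heterozygotes, and 200.7 and 256.1 in knockouts, with overlap and a log2 difference of -0.25. Col14a1, another fibril-associated collagen, had a difference of -0.06. The type VI chains Col6a1, Col6a2 and Col6a3, which form beaded filaments, differed by 0.40, 0.07 and 0.03. For Col6a1 the wild-type arrays read 59.6 and 26.0, further apart than the genotype means, and its 95% interval ran from -0.35 to 1.15.

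Col18a1, whose C-terminal fragment is endostatin, read 906.4 and 942.9 in wild type, 805.8 to 965.7 in heterozygotes, and 936.9 and 838.3 in knockouts. Its log2 difference of -0.06 had an interval of -0.32 to 0.20. Its relative Col15a1 differed by -0.34 with an interval of -1.01 to 0.33, the transmembrane Col13a1 by 0.44 with one of -0.32 to 1.20, and Col7a1, which forms the anchoring fibrils of skin, by -0.07 with one of -0.58 to 0.43. The intervals of these 3 genes, and of Col3a1, Col5a3, Col14a1 and Col6a1, span more than 1 log2 unit, so these arrays do not show that such genes stayed level.

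Across all 7 arrays, both knockout arrays lay above the other 5 for 3 collagens (Col1a1, Col1a2 and Col4a5), as they did for 14.2% of all genes. Both lay below the other 5 for 4 collagens (Col26a1, Col2a1, Col11a1 and Col5a3), as they did for 16.5% of all genes. The other 14 tested collagens overlapped. The 18 collagens that passed in no comparison had log2 differences from wild type of -0.46 to 0.47.

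The 15 collagens under the brightness filter read 0.8 to 51.4. Col9a2, Col9a3 and Col17a1 had signals under 10 on every array, and the nearest to the filter of 38.1 (geometric mean of signal plus 3.8) were Col11a2 at 37.2, Col4a6 at 36.9 and Col25a1 at 34.5. The others were Col4a3, Col4a4, Col8a1, Col10a1, Col12a1, Col16a1, Col19a1, Col20a1 and Col22a1. Chains of kidney and epidermal basement membrane, hypertrophic cartilage and late connective tissue are among them. A dim signal on such an array gives no level, and their genotypes were not compared.

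Between heterozygous and wild-type embryos no collagen passed the test. Of the 21 collagens 0 passed, with 1 at an unadjusted p under 0.05, and over all genes 0% passed (limma, with 284 genes or 3.54% at an unadjusted p under 0.05). The log2 differences, heterozygous minus wild type, ran from -0.60 to 0.34, with a median of -0.08 over the collagens and 0.01 over all genes. The lowest was that of Col1a1, whose 3 heterozygous arrays lay under both wild-type arrays, at -0.60 (SE 0.17, 95% interval -0.97 to -0.23, unadjusted p = 0.00459, limma adjusted p = 0.999). Its other probe set had a difference of -0.06 between these genotypes.

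Against the heterozygotes, which share the knockout arrays with the comparison above, 3 collagens passed. Over all genes 5.86% passed here, 3.11% higher and 2.76% lower in the knockout. The log2 difference, knockout minus heterozygous, was -1.76 for Col26a1 (SE 0.17, limma adjusted p = 0.000577) and -0.98 for Col2a1 (SE 0.19, 0.016), while Col1a1 rose by 0.97 (SE 0.17, 0.00981). The other Col1a1 probe set gave 1.28 (limma adjusted p = 0.00337 with probe sets tested separately, where 3.71% passed). Without knockout array 1 or 2 the calls of Col1a1 (adjusted p = 0.0745 and 0.109) and Col2a1 (0.0647 and 0.162) were lost, and the other Col1a1 probe set lost its own (0.0588 at most), while Col26a1 passed with any array left out.

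Col1a2 differed from the heterozygotes by 0.45 (SE 0.16, limma adjusted p = 0.133), and passed without heterozygous array 1 (0.61, 0.0323). The second Col4a5 probe set differed by 0.67 (limma adjusted p = 0.0416 with probe sets tested separately) and lost that call with any 1 of 6 arrays left out. The median over the 21 collagens was 0.06, beside -0.02 over all genes, and 5 collagens had an unadjusted p under 0.05, where 22.7% of all genes did. In a test for any difference among the 3 genotypes, in which 3.55% of all genes passed, the same 3 collagens passed: Col26a1 (limma adjusted p = 0.000782), Col1a1 (0.0239) and Col2a1 (0.0242).

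Of the enzymes and chaperones that modify and fold collagen chains, 13 were tested and 2 rose in knockouts over wild type, with 0 lower. Over all genes 1.96% passed as higher and 1.36% as lower. P4ha1, the catalytic subunit of prolyl 4-hydroxylase, read 212.1 and 209.5 in wild type, 221.3, 232.9 and 205.5 in heterozygotes, and 371.7 and 365.6 in knockouts. Plod2, the lysyl hydroxylase of the telopeptides, read 317.2 and 288.1, then 224.9, 330.4 and 290.6, then 688.1 and 666.9. On both genes the knockout arrays stood clear of the rest and the other genotypes overlapped. The log2 differences from wild type were 0.80 (SE 0.12, limma adjusted p = 0.00848) for P4ha1 and 1.15 (SE 0.17, 0.00635) for Plod2. Either call was lost without wild-type array 2 or either knockout array (0.0613 to 0.0841).

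The other 11 genes of this group did not pass. Serpinh1, the collagen chaperone, read 1640.6 and 1591.1 in wild type and 1402.1 and 1543.7 in knockouts (log2 difference -0.14, limma adjusted p = 0.529), and the median over the 13 genes was -0.02. Against heterozygotes 3 of the 13 rose, where 3.11% of all genes did: P4ha1 (0.74, 0.00621), Plod2 (1.27, 0.0017) and P4hb, the other subunit of prolyl 4-hydroxylase (0.31, 0.0499). The call of P4hb was lost with any array left out, that of P4ha1 without either knockout array, and that of Plod2 with none.

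**Figure D4:**
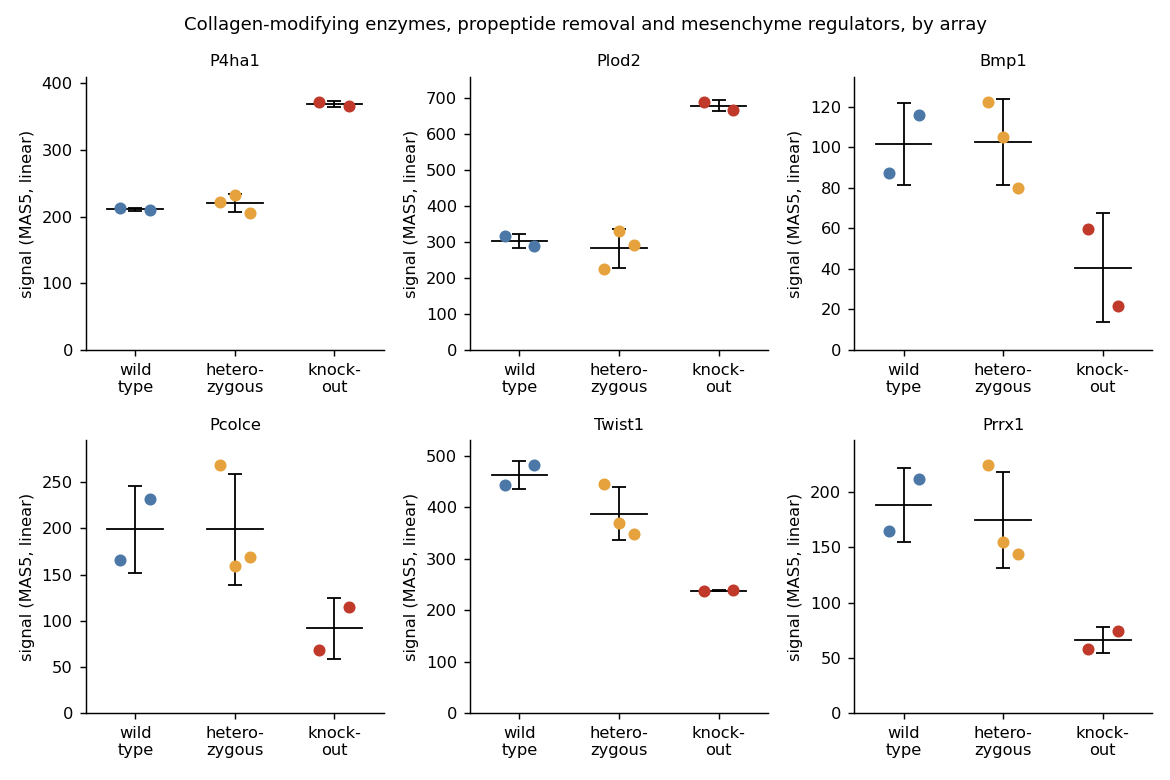
Signals of P4ha1, Plod2, Bmp1, Pcolce, Twist1 and Prrx1 by genotype (linear axes from 0), with each point 1 array of 2 pooled embryos and bars for mean ± SD. Both knockout points lie above the other 5 for P4ha1 and Plod2 and below them for the other 4 genes.

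In the later steps of collagen handling 0 genes passed against wild type, among 5 of secretion, 2 of propeptide removal, 2 of crosslinking, 8 of degradation, 3 receptors and 10 proteins that bind fibrils. Against heterozygotes 5 of these passed, in a comparison where 5.86% of all genes did. Sec24d, a coat protein that carries procollagen out of the endoplasmic reticulum, rose by 0.71 (limma adjusted p = 0.0299). Bmp1, the procollagen C-proteinase (-1.38, limma adjusted p = 0.0442), its enhancer Pcolce (-1.09, 0.0433) and the metalloproteinase inhibitors Timp1 (-0.78, 0.0352) and Timp2 (-0.72, 0.0154) fell. Each of these 5 calls was lost without knockout array 2. That of Timp1 was lost with any array left out, and that of Bmp1 with 6 of the 7 left out in turn. Those of Sec24d and Pcolce were lost with 4, and that of Timp2 with 2. Bmp1 read 59.7 and 21.6 in knockouts and 80.1 to 122.3 on the other arrays. The members of largest difference from wild type in the groups without a call were Loxl3 (0.43) among crosslinking enzymes, Ddr1 (-0.62) among receptors and Hapln1 (0.47) among fibril partners.

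Of 9 tested transcription factors and signals known to act on collagen genes, 2 were lower in knockouts than in wild type, as were 1.36% of all genes. Prrx1, a homeodomain factor of limb and head mesenchyme, read 164.1 and 211.7 in wild type, 223.8, 154.5 and 144.0 in heterozygotes, and 58.3 and 74.6 in knockouts. Twist1, a mesenchymal bHLH factor, read 443.5 and 481.5, then 446.1, 369.4 and 348.1, then 237.3 and 239.1. Both knockout arrays were lowest on both genes, with log2 differences from wild type of -1.45 (SE 0.23, limma adjusted p = 0.00928) and -0.95 (SE 0.14, 0.00657), and both calls were lost without wild-type array 2 or either knockout array.

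Sox9, the factor that drives Col2a1 in cartilage precursors, read 64.0 and 67.8 in wild type, 103.3, 85.5 and 92.3 in heterozygotes, and 57.6 and 50.5 in knockouts. It was highest in heterozygotes, and only the knockout-heterozygote difference of -0.75 passed (limma adjusted p = 0.0341), not that from wild type of -0.27 (0.482). Smad3, a transducer of TGF-beta, also fell against heterozygotes (-0.71, limma adjusted p = 0.0361), and Creb3l1, a bone collagen regulator, rose by 0.69 (0.0458). The calls of Sox9 and Smad3 were lost with 4 of the 7 arrays left out in turn, and that of Creb3l1 with any.

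Markers of tissues that make collagens were counted on the same arrays, where 1.96% of all genes rose and 1.36% fell from wild type. Of 9 tested markers of somite and sclerotome, which form the vertebrae and express Col2a1, 3 fell from wild type and 0 rose. These were Pax1 (-2.42, limma adjusted p = 0.0018), Meox1 (-1.23, 0.00622) and Twist1, and without knockout array 2 only Pax1 passed. The summed signal of the list was 1622.6 to 1746.8 in wild type, 1491.6 to 1550.0 in heterozygotes and 962.3 to 1032.2 in knockouts. Pax1 was near the floor at 8.5 and 9.3 in knockouts, under the brightness filter. It was tested only through its wild-type and heterozygous signals, so its call is no support for a fall. Of 3 tested notochord markers 0 passed. The summed signal of the 6 with a probe set was 268.1 to 306.0 in wild type and 289.6 to 337.0 in heterozygotes. It was 337.9 to 377.6 in knockouts, at its lower end only just above heterozygous array 1. Foxa2 read 194.7 and 162.4 in knockouts and 114.3 to 134.6 on the other arrays (0.51, limma adjusted p = 0.117). The other tested markers, Foxa1 (0.19, 0.711) and Chrd (-0.24, 0.672), went different ways. Among 9 tested markers of neural crest and head mesenchyme 2 fell, Prrx1 and Prrx2 (-0.80, limma adjusted p = 0.0242), and 0 passed without wild-type array 2 or either knockout array. The median over these 9 was 0.22. The summed signal of the 11 with a probe set was 1431.4 to 1439.9 in wild type, 1370.3 to 1588.1 in heterozygotes and 1257.9 to 1318.9 in knockouts. The part of these tissues in the values of Col26a1, Col2a1, Col1a1 and Col1a2 was not tested.

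Markers of visceral endoderm, the outer layer of the yolk sac that the dissection was to remove, rose for 10 of 14 tested genes, with 0 lower. The count was 1 (Lrp2) without knockout array 2, 4 without knockout array 1 and 6 without wild-type array 2. The largest rises past the threshold were those of Apoa1 (4.91, limma adjusted p = 0.0171), Spink1 (4.45, 0.0181), Cubn (4.08, 0.00365) and Apob (2.99, 0.00392). The brightness filter used the mean log2 value over all 7 arrays. On the wild-type and heterozygous arrays alone Spink1, Cubn, Apob, Amn and Apoc2 averaged below it. These genes were tested only through their high knockout signals, so their calls are no support for a rise. Summed over 15 markers the signal was 3125.4 and 759.0 in wild type, 821.0, 2009.1 and 1120.0 in heterozygotes, and 11054.6 and 13137.9 in knockouts. Some markers were near the floor on single arrays, such as Apoc2 at 0.5 on heterozygous array 1 and Apoa4 at 2.1 on heterozygous array 3. Genes of this kind were picked out by the submitters from the same 7 arrays, so the direction of the list is not independent evidence. Col3a1 was highest on wild-type array 2, which had the lowest sum, and lowest on wild-type array 1. The knockout arrays read 1004.4 and 925.6, above wild-type array 1 and heterozygous array 2. Wild-type array 2 read above array 1 on 14 of the 21 collagens (66.7%) and on 49.3% of all genes tested. The part of yolk sac tissue in the collagen values was not tested.

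**Figure D5:**
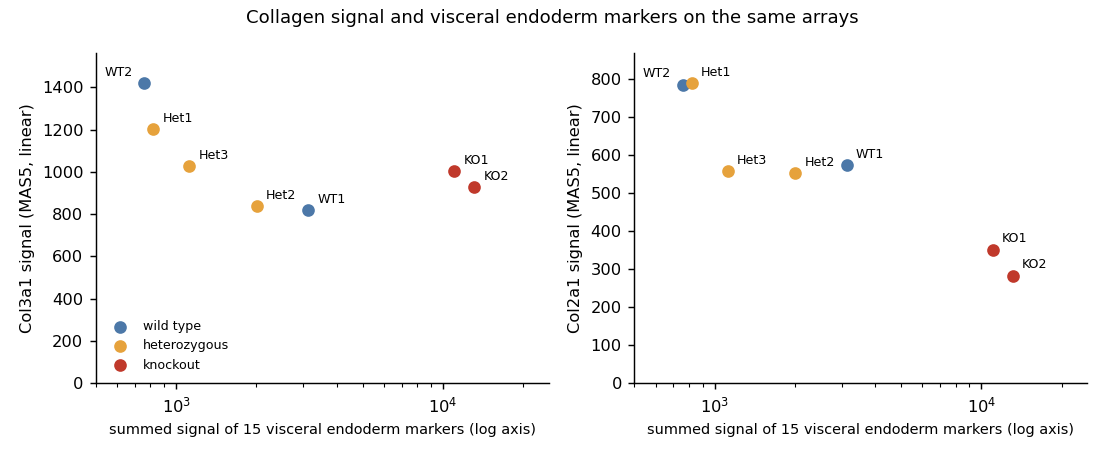
Signals of Col3a1 and Col2a1 on the 7 arrays against the summed signal of 15 visceral endoderm markers (log axis), with each point 1 array. The knockout arrays have the highest sums, 11054.6 and 13137.9, and the other 5 arrays run from 759.0 to 3125.4.

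The other tissue lists gave these counts against wild type, beside 1.96% of all genes higher and 1.36% lower. Of 10 endothelial markers 2 fell, Cd34 (-1.20, limma adjusted p = 0.0062) and Emcn (-1.24, 0.00848). The other 8 did not pass and ran from -0.62 (Tie1) to 0.36 (Tek), and the median over the 10 was -0.17. Of 11 heart markers 2 fell, Myl2 (-2.59, limma adjusted p = 9.35e-05) and Nppa (-2.08, 0.000744). The other 9 did not pass and ran from -0.45 (Myl3) to 0.31 (Myl7), with a median of -0.19 over the 11. Of 7 neural tube markers 5 fell, among them Fabp7 (-2.30, limma adjusted p = 0.00555) and Lhx2 (-1.07, 0.0314). Of 6 surface ectoderm markers 3 rose, Krt8 (1.46, 0.024), Krt18 (1.08, 0.0299) and Epcam (0.72, 0.0271). Cdh1 (1.36, 0.0597), Krt5 (0.50, 0.357) and Trp63 (0.36, 0.545) did not pass. The part of other epithelia, such as visceral endoderm, in the values of Krt8, Krt18 and Epcam was not tested. Of 9 parietal endoderm markers 1 fell, Snai1 (-1.23, limma adjusted p = 0.0062). The other 8 did not pass and ran from -0.24 (Nid1) to 0.43 (Lamb1), and the median over the 9 was 0.05. Of 3 decidual and trophoblast markers 0 passed. Among these Dcn and Hand1 are also on the fibril partner and heart lists, and Prl8a2 differed by 1.55 (SE 1.25). The part of decidual tissue in the pools was not tested. With 1 array left out the heart count stayed at 2, for Myl2 and Nppa, while other counts did not hold. Without wild-type array 2 the endothelial, surface ectoderm and parietal endoderm counts were 0 and the neural tube count was 1, and the same held without knockout array 2. Without knockout array 1 the surface ectoderm count was 0 and the neural tube count 1. Between heterozygotes and wild type 0 genes of any list named here passed.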

How the data were processed

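Whole embryos of 3 Adnp genotypes were measured on 7 Affymetrix Murine Genome 430A arrays. The authors deposited 1 linear intensity per probe set and array. Per the submitters' processing notes these were computed with MAS5, whose version and scaling target the sources used here do not give. The mean of each array, trimmed by 2% at either end, was 150.0 to 150.1, so changes are relative to the whole array. Groups and replicate numbers came from the sample titles.

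Of 22690 probe sets, 64 were array controls and 20380 had a single symbol in the platform annotation. The pseudocount of 3.8, added before taking log2, is the 10th percentile of the deposited intensities. Genes with a mean log2 value below the 40th percentile over probe sets were not tested. Genotypes were compared in 1 fit over all 7 arrays with limma 3.58.1 under R 4.3.3, using lmFit and then eBayes with its trend on intensity, which left 4 residual and 6.19 prior degrees of freedom. P-values are two-sided, and every adjusted p is limma's. The fit was tested on simulated data with known changes and independent normal noise for each gene and array. Such data hold no shifts shared by many genes of an array, so the test does not cover those. The platform annotation can be old, and probe sets can share sequence with related genes.

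The collagens, the pathway and marker lists, the tests and the rule for named genes were chosen with earlier results of these data known, and the lists came from textbook knowledge. Named were collagens past the threshold, then in each class the largest differences and highest signals, and from each list up to 4 members past the threshold or else the largest difference. A fit with each probe set separately was added after the data were seen. The other alternatives changed the choice of probe set, the pseudocount, the filter, the scaling or the trend, used array weights, a replicate block or only the arrays compared, or left out each array in turn.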

Additional observations from a re-analysis of the deposited data

How the results depend on the processing

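Col26a1 passed against wild type and against heterozygotes under all 19 settings, 12 alternatives and 7 left-out arrays, with log2 differences of -2.09 to -1.70 and -1.88 to -1.55 and adjusted p of at most 0.0175 and 0.0165. The count of collagens past the threshold against wild type was 2, and fell to 1 without the intensity trend or with the replicate block, and to between 1 and 2 with 1 array left out (1 without wild-type array 2 or either knockout array). Against heterozygotes it was 3, with 1 to 4 when 1 array was left out (1 without either knockout array, 4 without heterozygous array 1). In the test among 3 genotypes it was 3, fell to 1 without the filter or without the trend, and was 1 to 3 with 1 array left out. Between heterozygotes and wild type it was 0 under every setting. Col2a1 kept its direction but lost its calls without the trend (adjusted p = 0.0652 against wild type and 0.0538 against heterozygotes) and with the block (0.0754 and 0.0711). With probe sets averaged, Col1a1 passed against wild type (0.80, adjusted p = 0.0229) and the count there was 3. Of 1170 recomputed single-gene values 1157 kept their side of the threshold, 11 lost a call and 2 gained one. Among called values 0 turned sign, while 63 values that passed in neither fit did.

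The counts over all genes moved more. Against wild type 266 genes passed, and 161 without the filter, 174 without the trend, 514 with array weights, 72 with the block and 36 to 417 with 1 array left out. Against heterozygotes 470 passed, and 306, 262, 663, 76 and 67 to 545 under the same settings, and among the 3 genotypes 285, and 159, 126, 509, 59 and 17 to 320. The replicate numbers pair no samples by the labels. Deviations of same-numbered arrays correlated by -0.29 to 0, and those of differently numbered arrays by -0.05 to 0.29. Within a group of 2 arrays the deviations mirror each other. The signs of these values are therefore tied, and they cannot settle whether the numbers pair samples. In the block fit heterozygous array 3 is alone in its block and adds nothing. The causes of these shifts were not tested, beside the fewer samples of the left-out and block fits. Arrays give no read depth, and with 2 or 3 pools per genotype a collagen must differ clearly to pass.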
